A study of Mus musculus with 2 samples.

Results

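Radial glial cells (RGCs) in S phase were selected from scRNA-seq of the dorsal telencephalon of mouse embryos at E14.5 by their raw counts of unique molecular identifiers (UMIs), each UMI standing for 1 captured RNA molecule. A cell barcode was taken when it held 1500 to 60000 UMIs, under 10% of them mitochondrial, at least 4 UMIs summed over the RGC genes *Sox2*, *Hes1*, *Hes5* and *Sox9*, and at least 5 UMIs summed over the S phase genes *Mcm3*, *Mcm5*, *Mcm6*, *Pcna*, *Ung* and *Ccne2* (the S phase sum). It was also limited to 4 UMIs of *Top2a*, *Mki67* and *Cenpf* together (the mitosis sum), 1 UMI of *Eomes*, 1 of *Neurog2*, 2 of *Neurod2* and *Neurod6*, and 1 of *Gad1*, *Gad2* and *Dlx6os1*. This gave 479 of the 12936 barcodes that passed the limits on depth and mitochondrial UMIs, 132 in replicate 1 and 347 in replicate 3. The 2 libraries, numbered as in their labels, are WT control embryos of a line titled EoMltt3 and given as EomesMllt3 control in the series. Their background is C57BL/6J per the study's methods, and the labels name the source as brain hemispheres. Both libraries belong to 1 untreated group, the number of embryos behind each is not given in the sources used here, and no treatment or genotype could be compared. The study asked which ligands of SST+ interneurons meet receptors on RGCs and on intermediate progenitor cells (IPCs), so the RGCs in S phase are part of the receiving cells.

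RGCs are the neural stem cells of the embryonic cortex. Their nuclei travel with the cell cycle, replicating DNA away from the ventricle and dividing at its surface, and their divisions renew the RGC or give an IPC or a neuron. Before S phase the origin recognition complex, CDC6 and CDT1 load the MCM2-7 helicase on DNA (licensing). CDC45 and the GINS complex then turn it into the moving helicase (firing), with polymerases, the sliding clamp PCNA, nucleotide synthesis and histone chaperones working behind it. Many genes of this machinery are known targets of the E2F factors, which are released from the retinoblastoma protein as a cell leaves G1.

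E2F-type letters stand in the promoters of some licensing genes and of some genes that chose the cells, and these are shown first. In the 250 bases upstream of the RefSeq start (GRCm38.p6, which is the mm10 build of the files), the letters TTTCCCGC or TTTGGCGC, on either strand, occurred in 407 of 27025 promoters (1.51%) and in 284 of the 9190 promoters of genes tested below (3.09%). They occurred in 5 of the 21 licensing and firing genes with a promoter (23.8%), in 2 of 27 fork genes (7.41%), in 1 of 26 of nucleotide supply (3.85%), in 4 of 19 of chromatin (21.1%), in 2 of 21 of repair (9.52%) and in 2 of the 5 S phase genes of the cell selection that have one. Of the genes higher in S phase than in low-cycle RGCs below, 35 of 306 held them (11.4%). Of the 4 licensing genes higher in S phase than in G2M RGCs below, *Mcm2* and *Cdt1* had a promoter to search and it did not hold these letters. Windows of 30 bases around these matches are printed 5′ to 3′ on the strand of the gene, with the match in capitals. The first 3 windows belong to genes that selected the cells, the next 4 to licensing genes that differ below, and the last, *Orc3*, to one that does not.
Mcm6, minus strand, chr1:128359797-128359826: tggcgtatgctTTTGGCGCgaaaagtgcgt
Mcm6, minus strand, chr1:128359734-128359763: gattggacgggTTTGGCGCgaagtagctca
Mcm5, plus strand, chr8:75109349-75109378: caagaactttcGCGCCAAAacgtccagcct
Cdc6, plus strand, chr11:98908002-98908031: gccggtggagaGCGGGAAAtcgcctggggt
Mcm7, minus strand, chr5:138172030-138172059: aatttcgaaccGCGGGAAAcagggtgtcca
Gins3, plus strand, chr8:95633507-95633536: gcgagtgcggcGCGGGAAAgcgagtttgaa
Mcmbp, minus strand, chr7:128740436-128740465: ggtggccgcgaTTTCCCGCcattgtgagaa
Orc3, minus strand, chr4:34614965-34614994: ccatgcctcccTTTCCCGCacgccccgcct
The matches began 110 and 47 bases before the start of *Mcm6*, 149 before *Mcm5*, 138 before *Cdc6*, 165 before *Mcm7*, 41 before *Gins3*, 25 before *Mcmbp* and 41 before *Orc3*. The windows of *Cdc6* and *Mcm7* lie inside the longest annotated extent of the gene, since a further start is annotated upstream of the one used. A match is a description of the letters in this window and not a measured binding site.

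The genes of the selection are given as a description, since they chose the cells. *Mcm3*, a helicase subunit, stood at 248 and 251 CPM (the UMIs of a gene scaled to a class total of 1000000 UMIs) in replicates 1 and 3. *Pcna*, the clamp, stood at 331 and 327 CPM and *Ung*, which removes uracil from DNA, at 81.8 and 85.3 CPM. In RGCs with an S phase sum and a mitosis sum of at most 4 (low-cycle RGCs, 97 and 251 cells) *Ung* stood at 3.76 and 9.86 CPM, and in RGCs with a mitosis sum of at least 5 (G2M RGCs, 307 and 624 cells, any S phase sum) at 19.0 and 25.7 CPM. *Sox2* stood at 229 and 185 CPM, near its level in low-cycle RGCs (255 and 192 CPM), and *Hes5* at 162 and 70.3 CPM, so the replicates differ more in *Hes5* than the classes do. Cells that should lack the gene give the background: with every cell thinned to 5000 UMIs, 31.5% and 31.9% of the S phase RGCs held an *Ung* UMI (59.8% and 59.4% unthinned) against 0.588% and 1.38% of cells with at least 5 *Neurod2* and *Neurod6* UMIs (1.73% and 3.33% unthinned), at median depths of 12481 and 12192 UMIs in the S phase RGCs and 12047 and 11771 in those neurons.

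One group of genes known for S phase did not follow the label. The 67 replication-dependent histone genes of the Hist1 and related clusters, whose proteins package new DNA, summed to 533 and 448 CPM in the S phase RGCs, to 481 and 463 CPM in low-cycle RGCs and to 4257 and 2868 CPM in G2M RGCs. *Hist1h1b*, a linker histone, stood at 39.4 and 23.4 CPM in S phase, 8.47 and 7.20 CPM in low-cycle and 456 and 378 CPM in G2M RGCs. These mRNAs mostly lack a poly(A) tail and the libraries were primed on poly(A), so their level here is not their cellular level. The cells are therefore best read by their rule, as RGCs high in licensing and *Pcna* transcripts and low in mitotic ones.

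The 2 libraries held 6163 and 8870 barcodes with 64182006 and 93295807 UMIs and shared 23 barcode sequences, of which the S phase RGCs held 0 in replicate 1 and 1 in replicate 3. The caller marked 2 and 9 of the S phase RGCs as doublets, and these stayed in. Some cells of every class held RNA of other types. At least 3 UMIs of Cajal-Retzius, hem and choroid plexus, meningeal, vascular, microglial or erythroid markers (*Ttr* and globin genes aside) were found in 10 of 132 and 41 of 347 S phase RGCs, where these lists summed to 653 and 411 CPM, and in 20 of 97 and 92 of 251 low-cycle RGCs, where they summed to 1987 and 2491 CPM. In G2M RGCs they summed to 255 and 347 CPM. Endothelial markers were uneven between the libraries, at 468 CPM in the S phase RGCs of replicate 1, where 4 cells held at least 3 such UMIs, and 15.0 CPM in those of replicate 3. Removing the cells with at least 3 UMIs of these lists, called the wider other-type lists below, was an alternative added after the data had been seen. Most named genes that lost their call by it are given with that value. *Aldoc*, *Ccnd3* and *Mcm4* are given with the number of alternatives under which the call was lost. A list of 9 projection neuron genes was not part of that removal. At least 3 of its UMIs were found in 70 of 132 and 148 of 347 S phase RGCs (324 and 252 CPM). In low-cycle RGCs this held for 43 of 97 and 95 of 251 cells (600 and 724 CPM). In the comparison with low-cycle RGCs below, 4 of these 9 genes were lower in S phase RGCs.

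S phase RGCs formed 24.6% (95% Wilson interval 21.2 to 28.4) of the 536 RGCs of replicate 1 and 28.4% (25.9 to 31.0) of the 1222 RGCs of replicate 3, where the intervals cover counting error only. G2M RGCs formed 57.3% and 51.1% and low-cycle RGCs 18.1% and 20.5%. The G2M class is named by its mitosis sum alone and may hold any S phase sum. Its median S phase sum was 7 UMIs in both libraries, above the 5 that S phase RGCs needed. These are therefore shares of the gates and not of the cycle phases. The shares depend on depth, since the gates count raw UMIs. After thinning each cell to 5000 UMIs the S phase share was 22.0% (17.9 to 26.9) in replicate 1 and 18.6% (15.7 to 21.9) in replicate 3, so the order of the replicates turned. Median depth was 16108 and 15676.5 UMIs in G2M, 12481 and 12192 in S phase and 10056 and 10043 in low-cycle RGCs. The class boundary is a range on a scale rather than a gap. The 33 cells at an S phase sum of 5 held 2404 CPM of the licensing and fork lists described below. The 41 cells just outside, at 4, held 2361 CPM of these lists. The 28 cells at a mitosis sum of 4 and the 29 at 5 held 1277 and 1987 CPM of the G2 and mitosis list.

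The first comparison asked what S phase RGCs hold, beyond the genes that chose them, that low-cycle RGCs do not. They held more of most genes of the replication lists. UMIs summed per class and library were compared by the quasi-likelihood F test of edgeR, and "adjusted p" below is its p-value after Benjamini-Hochberg adjustment over all genes tested. Among 11732 genes tested, 383 (3.26%) were higher and 230 (1.96%) lower in S phase RGCs, each in the same direction in both libraries, and the median log2 difference over all genes was -0.02. With the libraries as a block 797 were higher and 694 lower, and 2186 genes had an unadjusted p under 0.05. The tested genes were measured in the cells that the 6 S phase genes had picked, so these tests show how far the 2 libraries repeat a difference and are not independent evidence that the classes exist.

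Of 27 licensing and firing genes tested, 20 were higher, with a median log2 difference of 1.62 over the list, and none was lower. *Cdc6*, which loads the helicase (chromosome 11, 98907709 to 98923942), stood at 34.8 and 38.2 CPM in replicates 1 and 3 in S phase RGCs and at 1.88 and 1.90 CPM in low-cycle RGCs, a log2 difference of 3.88 ± 0.40 (SE, adjusted p = 0.000599). *Cdc45*, a subunit of the moving helicase, stood at 34.8 and 32.7 CPM against 3.76 and 1.52 CPM (3.59 ± 0.37). *Gmnn*, which encodes geminin, the inhibitor that stops CDT1 from licensing again, stood at 117 and 140 CPM against 19.8 and 15.9 CPM (2.90 ± 0.26), and *Gins2* of the GINS complex at 95.7 and 107 CPM against 9.41 and 20.1 CPM (2.64 ± 0.28). The values of both libraries lay apart between the classes for all 4 of these genes. *Ticrr* and *Mcm10*, both needed for firing, were higher by log2 3.33 and 3.26. The origin recognition complex did not move as 1 unit: *Orc1* was higher (2.18 ± 0.45, adjusted p = 0.0228), while *Orc3*, *Orc4* and *Orc5* differed by -0.20, 0.04 and -0.14 and did not pass. *Cdc6*, *Mcm7*, *Gins3* and *Mcmbp* among the printed windows passed and *Orc3* did not.

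At the fork, 30 of 33 genes were higher (median 1.79) and none lower. *Clspn*, encoding the checkpoint adaptor claspin, stood at 82.9 and 78.4 CPM against 8.47 and 4.55 CPM (3.68 ± 0.25, adjusted p = 7.59e-05). *Pclaf*, a PCNA-binding factor (chromosome 9, 65890323 to 65903551), stood at 216 and 209 CPM against 17.9 and 25.4 CPM (3.24 ± 0.19, adjusted p = 5.20e-05). *Pole*, the catalytic subunit of the leading strand polymerase, *Lig1*, which joins Okazaki fragments, and *Dscc1*, of a PCNA loader, were higher by log2 3.10, 2.80 and 3.65. *Chtf18*, of the same loader, had 49 UMIs in S phase and 1 in low-cycle RGCs, a ratio of CPM of 29.6 (exact 95% interval 5.07 to 1193). *Rfc1*, *Rnaseh2c* and *Rpa3* were the 3 that did not pass. Nucleotide supply followed with 19 of 27 genes higher (median 0.92), among them *Tk1*, the thymidine kinase, at 41.8 and 47.7 CPM against 1.88 and 4.55 CPM (3.42 ± 0.36). *Rrm2*, the small subunit of ribonucleotide reductase, *Tyms*, thymidylate synthase, and *Dut*, which keeps uracil out of DNA, were higher by 2.44, 2.14 and 1.68.

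Of 21 genes of chromatin assembly and maintenance, 16 were higher (median 1.43). *Uhrf1*, which reads hemimethylated DNA behind the fork (chromosome 17, 56303337 to 56323486), stood at 127 and 106 CPM against 12.2 and 9.10 CPM (3.47 ± 0.27, adjusted p = 0.000137). *Chaf1a*, a subunit of the chaperone that deposits histones on new DNA, stood at 61.5 and 73.2 CPM against 1.88 and 7.96 CPM (3.41 ± 0.35). The chaperones rose while the histone transcripts of this capture mostly did not: of 34 replication-dependent histone genes tested, *Hist1h1b* was higher (1.92, and 1.47 without the call once the cells of the wider other-type lists were removed) and *Hist1h2bc* lower (-1.41, and -0.94 without the call under a stricter low-cycle gate). In replication stress and repair, 24 of 32 were higher (median 1.56). *Rad51ap1*, of homologous recombination (chromosome 6, 126923415 to 126939621), had the largest increase among genes with at least 20 CPM in S phase RGCs, at 28.4 and 32.3 CPM against 1.88 and 0.758 CPM (4.15 ± 0.52, adjusted p = 0.00164). *Exo1*, an exonuclease, and *Brca1* with its partner *Bard1* were higher by 3.74, 3.47 and 2.78, *Exo1* by 3.24 in replicate 3 alone, as the low-cycle RGCs of replicate 1 had 0 UMIs of it. *Slfn9*, a gene of no list, was among the 10 largest, at 31.9 and 33.2 CPM against 1.88 and 2.28 CPM (3.58 ± 0.35). Of 22 genes that encode PCNA partners, a list that overlaps the others, 15 were higher.

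**Figure D1:**
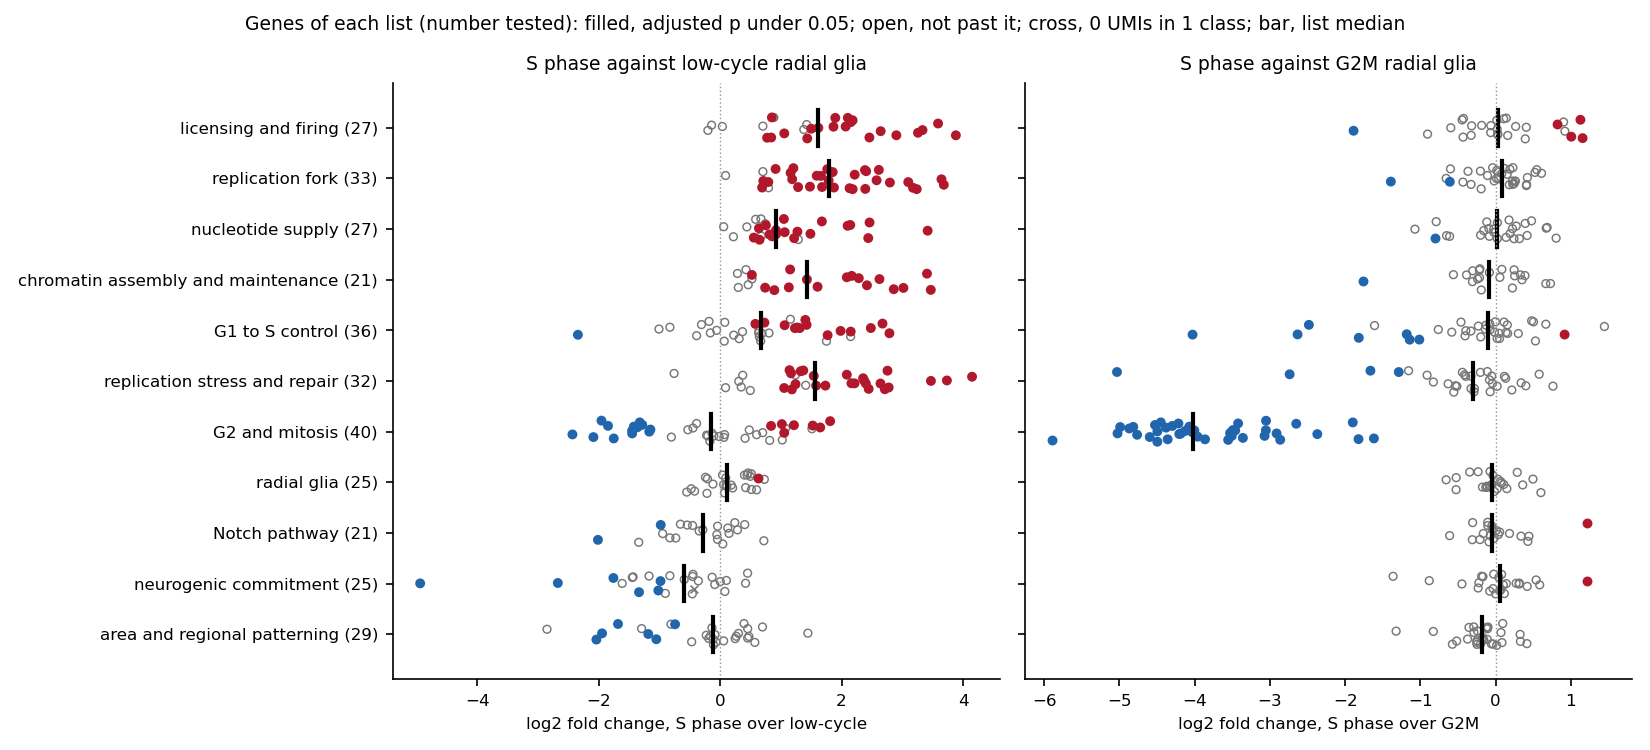
Log2 difference of each gene by list, S phase RGCs against low-cycle RGCs (left) and against G2M RGCs (right). Filled points passed an adjusted p of 0.05, open points did not, crosses had 0 UMIs in 1 class, and bars are list medians; the licensing, fork, nucleotide, chromatin and repair lists lie above 0 on the left and around 0 on the right, where all 40 G2 and mitosis genes lie below 0.

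Cell cycle regulators were mixed. Of 36 genes of G1 to S control, 14 were higher and 1 lower. The higher ones include activators and repressors of the E2F family: *E2f1*, an activator (chromosome 2, 154559400 to 154569892), stood at 44.1 and 51.8 CPM against 11.3 and 6.83 CPM (2.48 ± 0.24, adjusted p = 0.000477), and *E2f7* and *E2f8*, repressors, differed by 2.15 and 2.79, *E2f8* losing its call at 2.28 with the cells of the wider other-type lists removed. *Fbxo5*, the inhibitor of the anaphase-promoting complex, was higher by 1.98. *Cdkn1c*, encoding the cyclin-dependent kinase inhibitor p57, was the lower one, at 10.4 and 46.2 CPM against 214 and 132 CPM (-2.34 ± 0.56, adjusted p = 0.0439), with -4.23 in replicate 1 alone and -1.45 in replicate 3 alone, and with predicted doublets removed it was -2.29 and did not pass (adjusted p = 0.0969). The D cyclins did not pass, with *Ccnd1* at 0.64 and *Ccnd2* at 0.81. In the G2 and mitosis list 7 genes were higher and 13 lower. *Cenpa*, the centromeric histone, stood at 15.7 and 17.7 CPM against 98.8 and 97.4 CPM (-2.43 ± 0.16), and *Ccnb1*, cyclin B1, at 5.80 and 5.91 CPM against 29.2 and 18.2 CPM (-1.75 ± 0.28). These lower genes depended on the cells allowed into the low-cycle class, which admits up to 4 mitotic UMIs: when that class was held to an S phase sum of at most 2 and a mitosis sum of at most 1, the list had 13 higher and none lower, with *Cenpa* at -0.28 and *Ccnb1* at 0.23.

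Few RGC genes differed. Of 25 that the selection did not use, 1 passed, *Aldoc*, a glycolytic enzyme of the astroglial lineage, at 360 and 412 CPM against 257 and 263 CPM (0.62 ± 0.14, adjusted p = 0.0389), and its call was lost under 4 alternatives. *Fabp7*, *Nes* and *Pax6* differed by 0.21, 0.60 and 0.18 and did not pass, and with the block 8 of the 25 were higher and 1 lower. Genes of neurogenic commitment were lower in 6 of 25 cases, of which *Btg2* and *Gadd45g* stayed past the threshold with the cells of the wider other-type lists removed. *Nhlh2*, *Nrn1*, *Tubb3* and *Dcx* did not, with *Nrn1* going from -1.76 to -0.59. *Btg2*, an antiproliferative gene of neurogenic divisions, stood at 30.2 and 26.6 CPM against 75.3 and 73.6 CPM (-1.33 ± 0.13, adjusted p = 0.000515). *Gadd45g*, a growth arrest gene of newborn IPCs (chromosome 13, 51846675 to 51848475), stood at 4.64 and 13.2 CPM against 41.4 and 93.3 CPM (-2.67 ± 0.53, adjusted p = 0.0188). In the Notch pathway the ligand gene *Dll1* (1.74 and 1.14 CPM against 11.3 and 5.69 CPM, -2.01 ± 0.41) and *Hes6*, which opposes HES1 (38.9 and 43.9 CPM against 86.5 and 85.3 CPM, -0.98 ± 0.23), were the 2 of 21 that passed. *Hes6* lost its call with predicted doublets removed (-0.94, adjusted p = 0.0504) and in cells of 8000 to 20000 UMIs (-0.81), and *Dll1* at an S phase sum of at least 8 (-1.91). With the block 10 neurogenic genes were lower and 2 higher, and 4 Notch genes lower and 1 higher. *Eomes* and *Neurog2* were capped in both classes.

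The largest decreases lay in genes of other cells. *Reln*, the defining transcript of Cajal-Retzius cells (chromosome 5, 21884454 to 22344705), stood at 0.580 and 3.18 CPM in S phase RGCs and at 373 and 813 CPM in low-cycle RGCs (-7.55 ± 1.21, adjusted p = 0.00654), and the 6 Cajal-Retzius markers together at 2.90 and 6.37 CPM against 425 and 920 CPM. *Nhlh2* (2 UMIs against 126, a ratio of 104 in favour of low-cycle RGCs, 28.3 to 870), *Rspo2* of the cortical hem (-3.58) and *Zfp804b* (-4.37, and -4.06 in replicate 3 alone) followed. With the cells of the wider other-type lists removed, 299 genes were higher and 102 lower, of which 263 and 62 were among the first calls, and *Reln* stood at -0.49 and *Nhlh2* at -0.98, and neither passed. Of the 6 area and regional genes that were lower, *Nr2f2*, a gene of the caudal and ventral telencephalon, went from -2.04 to -0.86 and lost its call, *Wnt7b*, *Axin2*, *Zic2* and *Dmrta2* lost theirs at -1.15, -0.34, -0.17 and -0.46, and *Zic1* (-1.94), a gene of the dorsal midline, kept it. The licensing, fork, nucleotide, chromatin and repair lists had 20, 28, 14, 14 and 22 higher genes. *Tubb3* and *Dcx*, neuronal cytoskeleton genes that were lower by 1.02 and 0.98 on the log2 scale, lost theirs at -0.21 and -0.30. The part of these other cells in the remaining decreases was not tested.

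**Figure D2:**
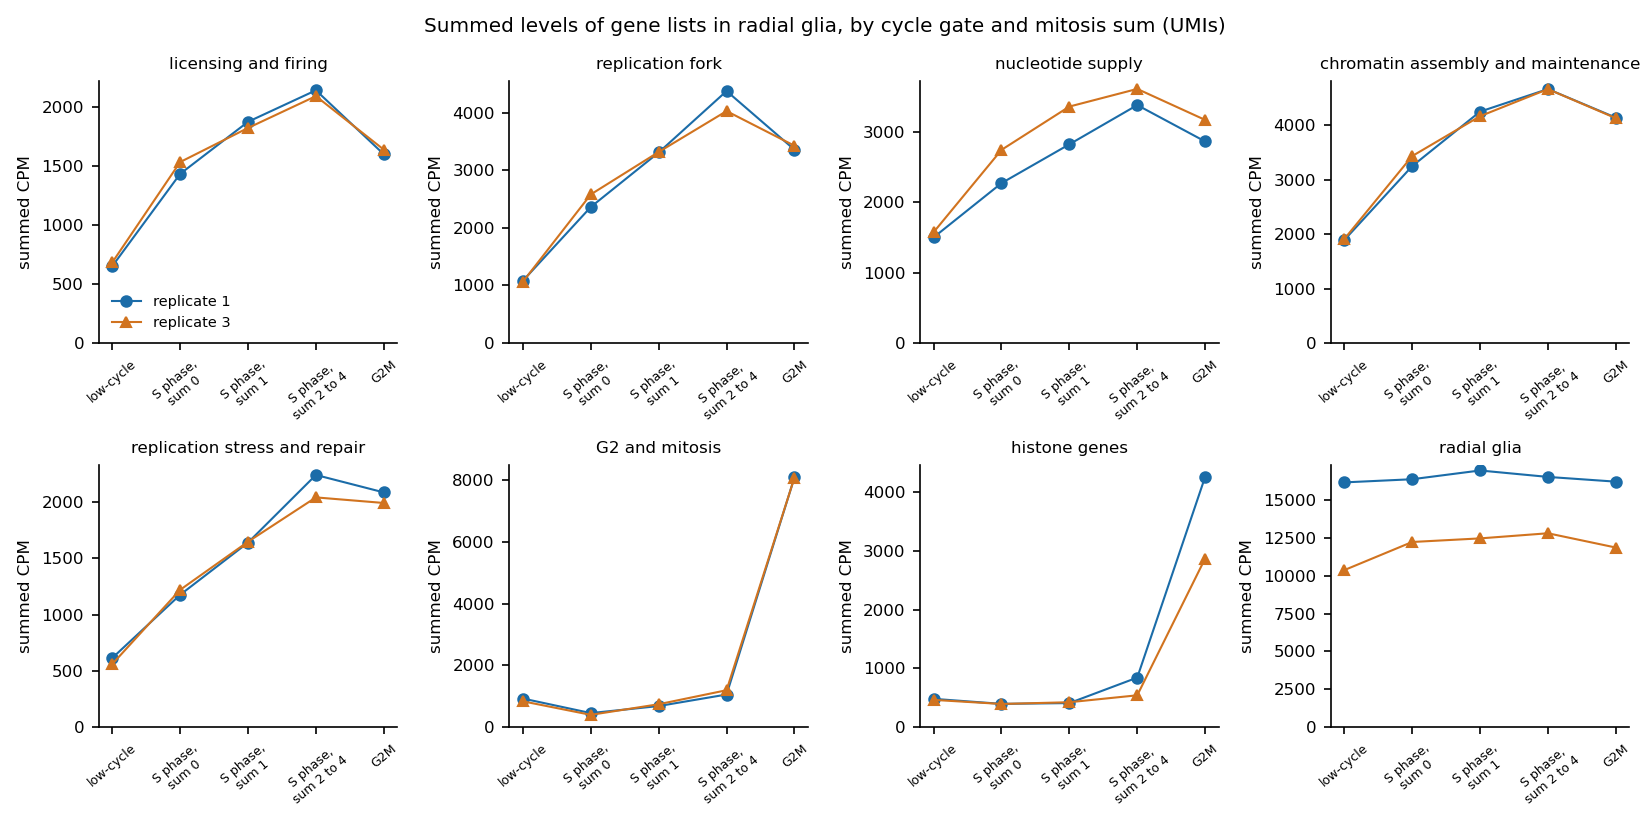
Summed level in CPM of 8 gene lists in low-cycle RGCs, S phase RGCs with a mitosis sum of 0, 1 and 2 to 4, and G2M RGCs, with replicate 1 as circles and replicate 3 as triangles. The licensing list went from 650 and 682 CPM in low-cycle to 1744 and 1776 CPM over all S phase RGCs and 1597 and 1636 CPM in G2M RGCs, while the G2 and mitosis list and the 67 histone genes were highest in G2M RGCs.

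The next comparison asked how S phase RGCs differ from the other cycling RGCs, those in G2M. It shares the S phase sums with the comparison above, so the 2 are not independent. Most of the replication machinery gave no call. The licensing list summed to 1744 and 1776 CPM in S phase and 1597 and 1636 CPM in G2M RGCs, and the fork list to 3184 and 3213 CPM against 3356 and 3425 CPM. Of 11732 genes, 17 (0.145%) were higher and 262 (2.23%) lower in S phase RGCs, 213 and 494 with the block. The G2M gate put no limit on the S phase sum, whose median there was 7 UMIs in both libraries.

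Of the 17 genes higher in S phase, 4 were of licensing. *Mcm2*, a helicase subunit that the selection did not use (chromosome 6, 88883474 to 88898780), stood at 93.9 and 97.1 CPM against 42.1 and 42.3 CPM (1.16 ± 0.12, adjusted p = 0.000388). *Mcm4* (chromosome 16, 15623897 to 15637400) stood at 141 and 124 CPM against 67.8 and 62.3 CPM (1.01 ± 0.12, adjusted p = 0.00102), and *Gins2* at 95.7 and 107 CPM against 44.3 and 47.5 CPM (1.13 ± 0.23). *Cdt1*, the loader that geminin blocks (chromosome 8, 122568015 to 122573130), stood at 49.3 and 48.9 CPM against 26.2 and 28.1 CPM (0.82 ± 0.16, adjusted p = 0.0272), and its call was lost in cells of 8000 to 20000 UMIs. For these 4 genes every S phase value lay above every G2M value. *E2f1* stood at 44.1 and 51.8 CPM against 27.0 and 23.4 CPM (0.92 ± 0.19, adjusted p = 0.0303), the 1 gene of G1 to S control that was higher. *Mcm7*, the subunit left, differed by 0.41 and did not pass, nor did *Gmnn* at -0.32. Thus 4 of 27 licensing genes were higher and 1 lower. That one was *Dbf4*, which activates the CDC7 kinase that fires origins, at 29.0 and 32.1 CPM against 116 and 115 CPM (-1.89 ± 0.24, adjusted p = 0.00134).

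The largest increase was in a repair gene. *Alkbh2*, which removes alkyl groups from DNA bases (chromosome 5, 114123926 to 114131233), stood at 31.3 and 36.4 CPM in S phase RGCs and at 7.96 and 7.55 CPM in G2M RGCs (2.03 ± 0.27, adjusted p = 0.00196). Its annotated span overlaps that of *Ung* (114130366 to 114139321), a gene that chose the cells, and whether reads of *Ung* were counted to it was not tested. *Enpp2*, which makes lysophosphatidic acid, differed by 1.57 and lost its call in cells of 8000 to 20000 UMIs. It is also a gene of choroid plexus and vessels. The hem and choroid plexus list without *Ttr* stood at 36.5 and 127 CPM against 71.2 and 143 CPM. With *Ttr* the list stood at 37.7 and 3931 CPM against 146 and 2082 CPM. The endothelial list stood at 468 and 15.0 CPM against 68.7 and 11.9 CPM. The part of such cells in the result was not tested. *Mfng*, a glycosyltransferase acting on Notch receptors, stood at 9.86 and 8.87 CPM against 3.30 and 3.73 CPM (1.21 ± 0.20, adjusted p = 0.00948), and *Fbxl20* and *Rhcg* differed by 0.99 and 1.24. Of the 25 RGC genes and of the 29 patterning genes, 0 passed by edgeR and 0 by DESeq2, with 4 and 1 at an unadjusted p under 0.05. With the cells of the wider other-type lists removed, 57 genes were higher and 336 lower, among them 16 of the 17 and 259 of the 262.

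What S phase RGCs had less of than G2M RGCs was led by the G2 and mitosis list, lower in 40 of 40 genes with a median of -4.02. The genes of the mitosis sum, which separate these classes by the rule, are not among them. Genes that vary with that sum differ through the gate itself. These calls therefore show how far the 2 libraries repeat a difference and are not independent evidence that the classes exist. *Hmmr*, of the spindle (chromosome 11, 40701388 to 40733464), stood at 2.32 and 2.27 CPM against 182 and 169 CPM (-5.89 ± 0.22, adjusted p = 6.09e-07), *Ccnb1* at 5.80 and 5.91 CPM against 199 and 215 CPM (-4.99 ± 0.24), and *Plk1*, a mitotic kinase, at 0 and 2.50 CPM against 78.8 and 76.1 CPM. Further cell cycle regulators went the same way. *Ccna2*, cyclin A2, stood at 12.2 and 12.1 CPM against 213 and 201 CPM (-4.03 ± 0.21, adjusted p = 3.09e-06). *Fbxo5* stood at 18.6 and 16.6 CPM against 102 and 118 CPM (-2.63 ± 0.24), so it rose from low-cycle to S phase and stood higher again in G2M RGCs. The kinase inhibitor genes *Cdkn2d* and *Cdkn2c* and the repressor *E2f7* were lower by 2.48, 1.82 and 1.18 on the log2 scale. In all, 7 of 36 genes of G1 to S control were lower.

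Some replication genes were also lower in S phase than in G2M RGCs, where 2.23% of all genes tested were lower. They were 2 of 33 at the fork, 1 of 27 of nucleotide supply, 1 of 21 of chromatin and 4 of 32 of repair. A single gene in a list of 27 or 21 is near the share over all genes and is no result about that list. None of these lists had a higher gene. With the block these lists had 3, 5, 3 and 9 lower and 3, 2, 2 and 2 higher genes. *Pclaf* stood at 216 and 209 CPM against 544 and 565 CPM (-1.39 ± 0.15, adjusted p = 0.000461), *Rrm1*, the large subunit of ribonucleotide reductase, at 96.8 and 93.7 CPM against 174 and 158 CPM (-0.81 ± 0.11), and the histone chaperone gene *Asf1b* at 7.54 and 9.32 CPM against 28.1 and 33.1 CPM (-1.76 ± 0.27). *Neil3*, a glycosylase for damaged bases and cross-links (chromosome 8, 53586867 to 53639065), stood at 20.9 and 19.1 CPM against 146 and 124 CPM (-2.74 ± 0.19, adjusted p = 1.65e-05). The fork helicase gene *Pif1* had 1 UMI against 431, a ratio of 172 in favour of G2M RGCs (30.7 to 6806). Of the histone genes 16 of 34 were lower and none higher (median -2.18), led by *Hist1h2ae* and *Hist1h2ap* at -4.09 and -3.95. The letters TTTGAA, the core of the cell cycle homology element of many G2 and mitosis genes, occurred on either strand in 64 of the 196 promoters of genes lower in S phase than in G2M RGCs (32.7%) and in 1173 of 9190 promoters of genes tested (12.8%). They occurred in 18.3% of all promoters, and the E2F letters in 6.63% of the same 196.

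**Figure D3:**
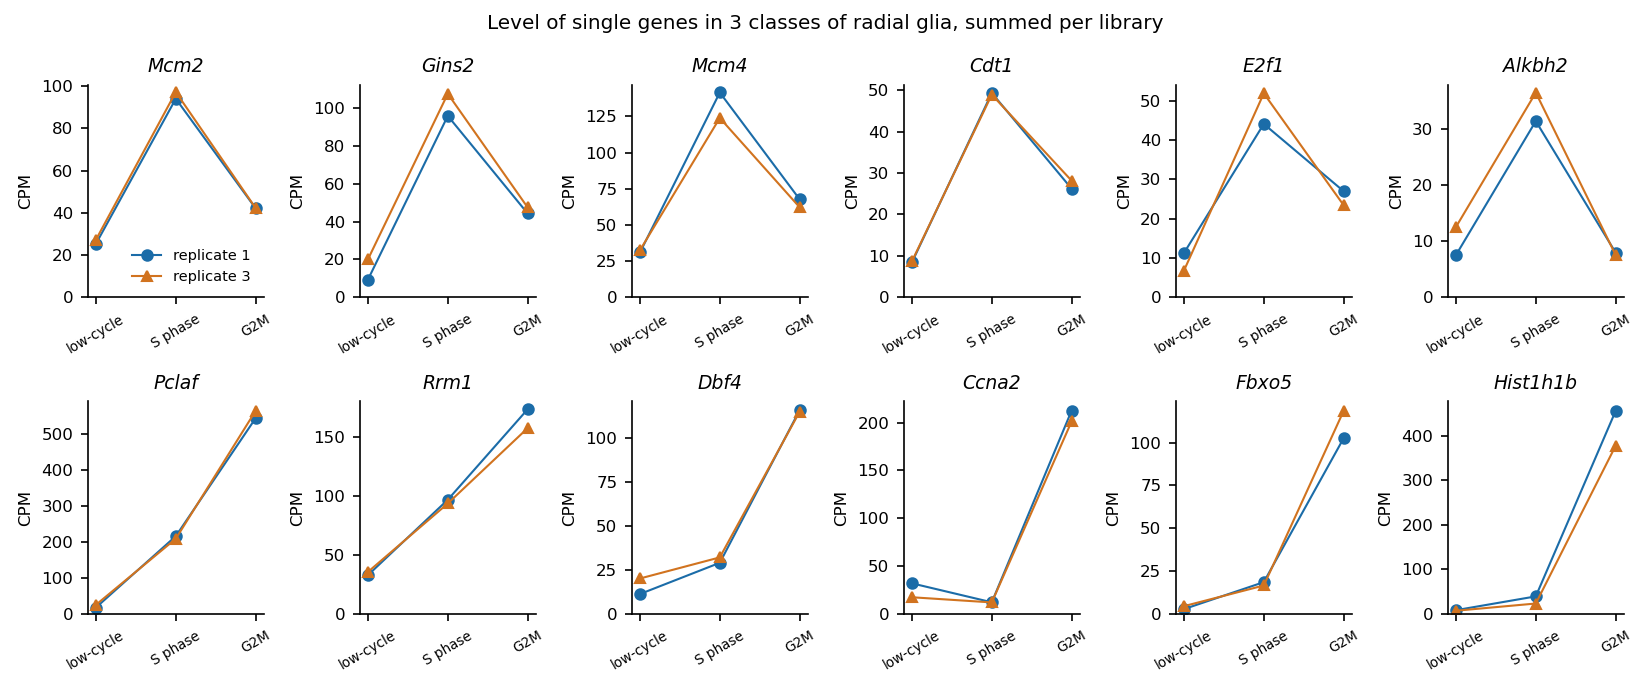
Level in CPM of 12 genes in low-cycle, S phase and G2M RGCs, with replicate 1 as circles and replicate 3 as triangles. *Mcm2*, *Gins2*, *Mcm4*, *Cdt1*, *E2f1* and *Alkbh2* are highest in S phase RGCs, and *Pclaf*, *Rrm1*, *Dbf4*, *Ccna2*, *Fbxo5* and *Hist1h1b* in G2M RGCs.

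The S phase RGCs were next compared among themselves. Their mitosis sum was 0 in 63 and 159 cells, 1 in 31 and 78 cells, and 2 to 4 in 38 and 110 cells of replicates 1 and 3, and *Top2a*, *Mki67* and *Cenpf*, which make the sum, are not tested here. With the rest of the genes, cells at 2 to 4 were compared with cells at 0, cells at 1 entering the fit only. The mitosis sum is part of the rule, so genes that vary with it differ through the split itself. The tests show how far the 2 libraries repeat such a difference. The S phase sum also went from 858 and 914 CPM at 0 to 1378 and 1287 CPM at 2 to 4. Of 9457 genes, 24 (0.254%) were higher and 0 lower by edgeR, 109 and 31 with the block, 22 and 1 by DESeq2, and 555 had an unadjusted p under 0.05. In the licensing list 1 of 27 genes passed, *Cdc45*, with 25 above 0, a median of 0.54 and 15 at an unadjusted p under 0.05. *Mcm2*, *Mcm4* and *Cdt1* differed by 0.20, 0.54 and 0.55 and did not pass, and the licensing list went from 1431 and 1531 CPM at 0 to 2137 and 2088 CPM at 2 to 4. The fork list went from 2362 and 2580 CPM to 4374 and 4026 CPM, and repair from 1177 and 1221 CPM to 2243 and 2043 CPM.

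Of the 24 genes, 11 were in the lists. The repair list had 4 higher genes of 30, the fork and nucleotide lists 2 each, and the licensing, chromatin and G2 and mitosis lists 1 each, and with the block 11, 9, 6, 4, 5 and 11. *Neil3* stood at 55.5 and 47.9 CPM in cells at 2 to 4 and at 2.45 and 2.01 CPM in cells at 0 (3.67 ± 0.32, adjusted p = 0.00336). *Pclaf* stood at 461 and 435 CPM against 74.8 and 57.9 CPM (2.73 ± 0.17, adjusted p = 0.000601), and *Brca1* at 136 and 123 CPM against 40.5 and 29.2 CPM (1.86 ± 0.22, adjusted p = 0.0147). Every value of these 3 genes at 2 to 4 lay above every value at 0. *Cdc45* stood at 63.1 and 59.2 CPM against 19.6 and 14.1 CPM (1.77 ± 0.25), and it lost its call by DESeq2 (1.88) and at an S phase sum of at least 8 (1.62). Fork and supply genes were *Clspn* (117 and 127 CPM against 44.2 and 42.8 CPM, 1.44 ± 0.21), *Rrm2* (207 and 259 CPM against 66.3 and 91.7 CPM, 1.50 ± 0.20) and *Tyms* (186 and 185 CPM against 73.6 and 79.1 CPM, 1.24 ± 0.19). *Uhrf1* differed by 1.25. *Clspn* and *Uhrf1* lost their calls at an S phase sum of at least 8. Further genes were *Esco2*, which acetylates cohesin during replication, at 3.28, *Knl1*, *Spc24* and *Cenpp* of the kinetochore and centromere at 2.32, 2.19 and 2.22, and the condensin subunit gene *Smc4* at 1.09. *Diaph3*, a formin that nucleates actin, stood at 339 and 271 CPM against 57.7 and 57.9 CPM (2.33 ± 0.18, adjusted p = 0.00178), and *Kif15*, a mitotic kinesin, at 51.7 and 66.2 CPM against 7.36 and 6.55 CPM.

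Histone transcripts summed to 395 and 393 CPM at a mitosis sum of 0, 408 and 423 CPM at 1 and 842 and 541 CPM at 2 to 4, and of 11 histone genes tested 0 passed by edgeR. RGC, Notch and neurogenic genes gave 0 calls of 25, 18 and 16 by edgeR and by DESeq2, with 0 of each list at an unadjusted p under 0.05. A deeper cell can reach a higher sum, and in cells of 8000 to 20000 UMIs the count was 39 higher and 1 lower. With the cells of the wider other-type lists removed, 66 were higher and 1 lower, all 24 among them, and removing only cells with UMIs of the narrower other-type lists gave 47 higher.

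**Figure D4:**
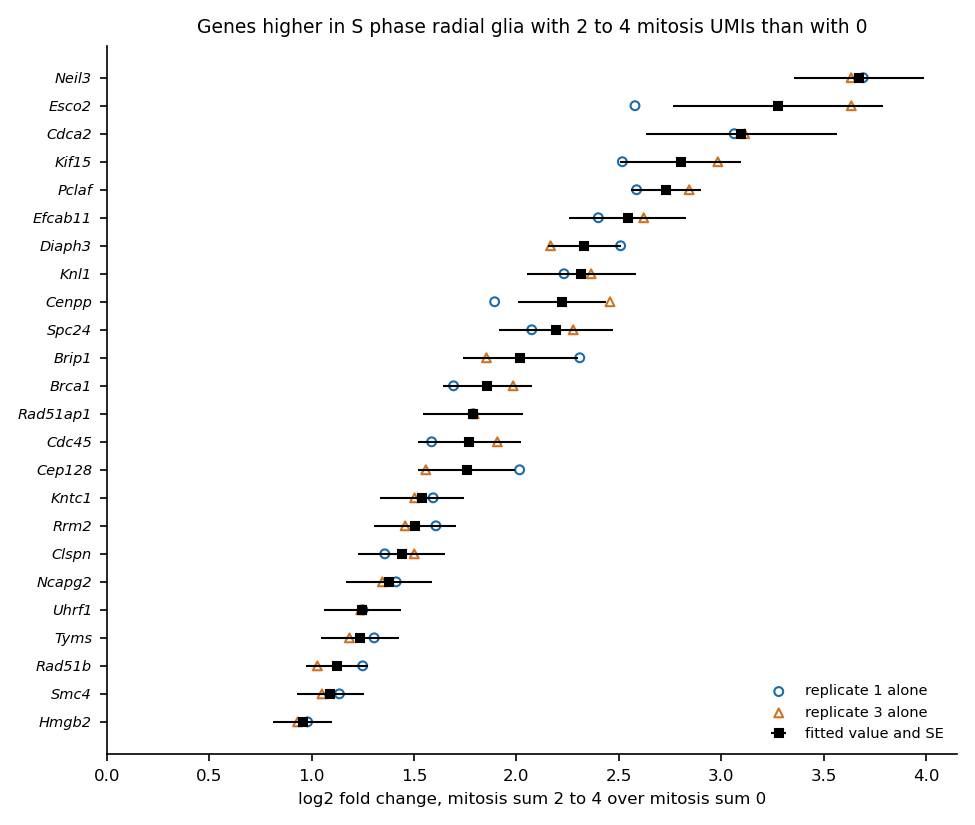
Log2 difference ± SE of 24 genes between S phase RGCs with a mitosis sum of 2 to 4 and those with 0, with each replicate alone as a circle (replicate 1) or triangle (replicate 3). All 24 lie above 0 in both replicates, from *Neil3* at 3.67 to *Hmgb2*, a chromatin protein gene, at 0.96.

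The last comparison set S phase RGCs against IPCs at the same cycle gates, the other receiving progenitor of the study. These IPCs were taken at 4 or more *Eomes* UMIs with the limits on neuronal and GABAergic genes as above, and 20 and 16 cells passed, so their levels rest on few cells. Of 11732 genes, 289 (2.46%) were higher and 325 (2.77%) lower in RGCs, 454 and 410 with the block, and the median over all genes was 0.12. The replication lists gave few calls between the 2 progenitors. By edgeR 0 of 33 fork genes, 0 of 27 nucleotide genes and 0 of 40 G2 and mitosis genes passed, with 10, 4 and 6 at an unadjusted p under 0.05, and DESeq2 called 1, 0 and 0. Their medians were 0.39, 0.33 and 0.40, all above the median of all genes. The repair list had 2 of 32 genes higher in RGCs (median 0.48) and the chromatin list 1 of 21 (median 0.32). Neither list had a lower gene. In simulated counts for this comparison, 7.46% of changes of log2 1 were recovered, so few calls do not show that the levels are alike. *Gmnn*, at 117 and 140 CPM against 60.5 and 21.6 CPM (1.60 ± 0.35, adjusted p = 0.0290, with 0.96 and 2.72 in replicates 1 and 3 alone), and *Mcm4* (0.74, with 0.98 and 0.49 alone, lost under 8 alternatives) were the 2 of 27 licensing genes that passed. *Gmnn* lost its call at an S phase sum of at least 8 (1.37).

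Of 36 genes of G1 to S control, 1 was higher and 2 were lower in RGCs, against 2.46% and 2.77% of all genes tested. The counts are near these shares, so the 3 genes are given singly and not as a result about the list. *Ccnd1*, cyclin D1, was lower in RGCs, at 92.8 and 54.8 CPM against 359 and 178 CPM (-1.89 ± 0.42, adjusted p = 0.0311), and *Ccnd3*, cyclin D3, higher, at 48.1 and 48.4 CPM against 20.2 and 16.2 CPM (1.40 ± 0.32, adjusted p = 0.0354), a call lost under 5 alternatives. *E2f1* was lower in RGCs, at 44.1 and 51.8 CPM against 125 and 103 CPM (-1.19 ± 0.24, adjusted p = 0.0194). Thus *E2f1*, higher in S phase than in both other RGC classes, stood higher still in S phase IPCs.

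RGC genes that the selection did not use differed too. A minimum of *Sox2*, *Hes1*, *Hes5* and *Sox9* UMIs was set for RGCs and not for IPCs. RGC genes that follow these 4 are therefore part of the selection in a wide sense. Of the 25 RGC genes, 10 were higher in RGCs and none lower (median 1.38), 17 with the block. *Ttyh1*, a membrane protein gene of neural stem cells (chromosome 7, 4119530 to 4135407), stood at 169 and 198 CPM against 28.2 and 21.6 CPM (2.86 ± 0.26, adjusted p = 0.000255), *Id4*, an inhibitor of neurogenic bHLH factors, at 376 and 411 CPM against 76.7 and 59.4 CPM (2.54 ± 0.21), and *Fabp7*, the lipid-binding protein of RGCs, at 4293 and 2990 CPM against 1170 and 626 CPM (2.04 ± 0.40). The filament gene *Nes* and the WNT effector gene *Tcf7l1* were higher by 1.64 and 2.41. *Pax6* and *Vim* did not pass, at 0.42 and 0.34. *Id3*, a BMP target gene, stood at 80.0 and 70.9 CPM in RGCs and had 0 UMIs in the IPCs, at least 10.6-fold higher in RGCs against the 3 UMIs over the group that a count of 0 allows. *Vit*, an extracellular matrix gene, was likewise at least 9.22-fold higher, and *Anxa2* and *Plekhg1* at least 6.39-fold and 6.25-fold. Endothelial, pericyte and meningeal markers were also at 468, 86.4 and 30.2 CPM in the RGCs of replicate 1 and at 15.0, 92.8 and 120 CPM in those of replicate 3, and at 0 to 5.40 CPM in the IPCs, and their part in these genes was not tested.

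Neurogenic genes showed the opposite, lower in RGCs in 18 of 25 cases (median -2.89). *Eomes* chose the IPCs, and *Eomes* and *Neurog2* were capped in RGCs, so genes that follow them are part of the selection in a wide sense. *Gadd45g* stood at 4.64 and 13.2 CPM in RGCs and at 517 and 1074 CPM in IPCs (-6.13 ± 0.55, adjusted p = 0.000253). *Insm1*, a zinc finger factor of basal progenitors, stood at 7.54 and 5.68 CPM against 113 and 130 CPM (-4.07 ± 0.30, adjusted p = 8.15e-05). *Sstr2*, a receptor for somatostatin, stood at 1.74 and 2.50 CPM against 36.3 and 70.2 CPM (-4.10 ± 0.48, adjusted p = 0.00132), with 14 UMIs over all S phase RGCs and 22 over the IPCs. *Neurod4* had 0 UMIs in RGCs and 8 in IPCs. It was 37.7-fold higher in IPCs against a floor of 3 UMIs in RGCs, with the 8 UMIs taken as exact. *Neurog1* had 1 UMI against 11, a ratio of 156 (22.6 to 6694). In the Notch pathway the ligand gene *Dll1* (1.74 and 1.14 CPM against 56.5 and 37.8 CPM, -4.54 ± 0.46), *Mfng* (9.86 and 8.87 CPM against 141 and 162 CPM, -3.89 ± 0.22) and *Hes6* (-2.91) were lower and the receptor gene *Notch2* higher (197 and 181 CPM against 60.5 and 27.0 CPM, 2.06 ± 0.31). *Srrm4*, *Myt1*, *Rbfox3* and *Thrb*, genes of neuronal splicing and differentiation, led the remaining decreases at -4.96, -5.21, -5.38 and -5.23.

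**Figure D5:**
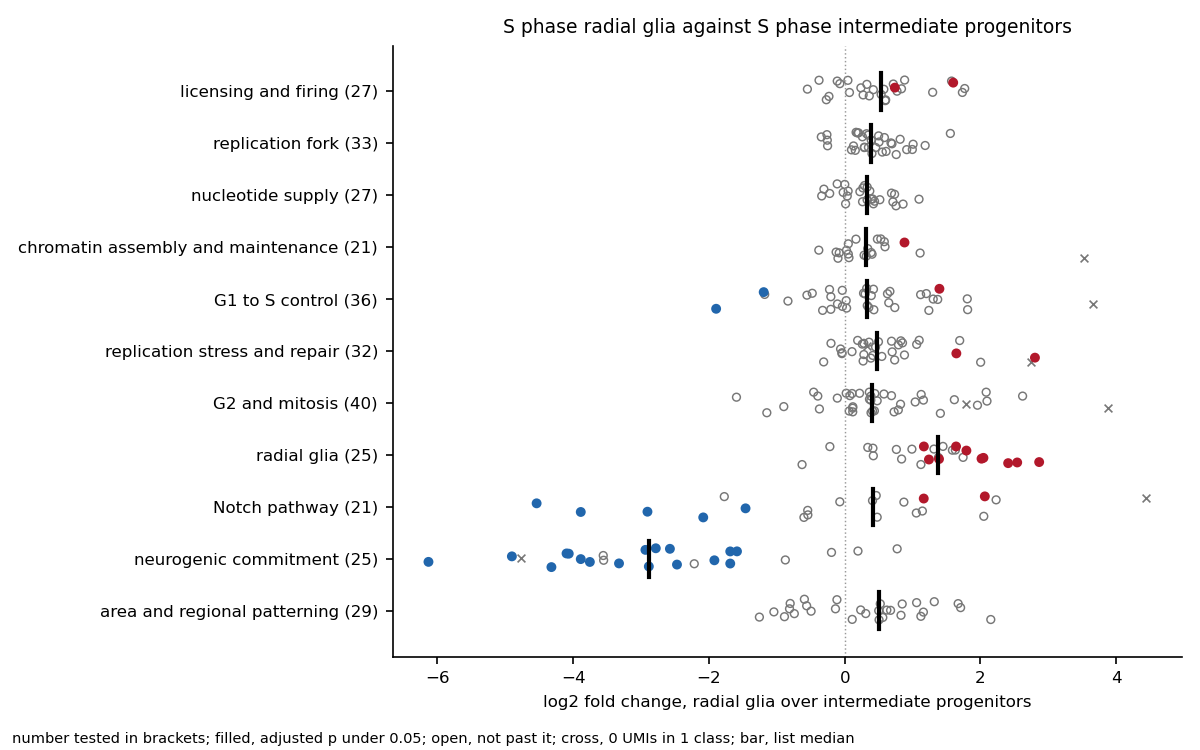
Log2 difference of each gene by list, S phase RGCs against S phase IPCs, drawn as in the earlier plot of differences by list. The RGC list has its median at 1.38 and the neurogenic list at -2.89, and the fork, nucleotide and G2 and mitosis lists, with medians of 0.39, 0.33 and 0.40, have no filled point.

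Whether entering S phase changes the same genes in both progenitors was tested as the S phase minus low-cycle difference in RGCs against that in IPCs (136 and 150 low-cycle IPCs). Of 11732 genes 0 passed by edgeR, the lowest adjusted p being 0.324 (*Btg2*), 890 had an unadjusted p under 0.05, and DESeq2 called 26 and the block 17. With 36 S phase IPCs this does not show that the effects are alike. The interaction medians were 0.04 for licensing, -0.11 for fork, -0.14 for nucleotide, 0.25 for repair, 0.09 for chromatin and -1.06 for G2 and mitosis genes (34 of 40 below 0, 7 at an unadjusted p under 0.05), against 0.08 over all genes. Low-cycle RGCs held 926 and 836 CPM of the G2 and mitosis list and low-cycle IPCs 275 and 301 CPM. The stricter low-cycle gate was not applied to the interaction. The part of these low-cycle levels in the -1.06 was not tested.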

How the data were processed

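Single cells of 2 libraries were profiled with 10x Genomics 3' v3.1 chemistry after papain dissociation of the dorsal telencephalon. The authors produced UMI counts per gene and barcode, deposited without normalization and used here as deposited. The submitters' processing notes name Cell Ranger 7.0.0 and mm10. The annotation and the cell calling are not given in the sources used here.

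The rule of the first paragraph of the report was applied to raw counts, and no clustering was used. Raw counts were summed per class and library (10 sums, or 6 for classes of the S phase RGCs by mitosis sum) and compared in edgeR (glmQLFit and glmQLFTest) with TMM scaling, edgeR's filter on low counts and a prior count of 2, at a Benjamini-Hochberg adjusted p of 0.05 over all genes tested. The 20 genes of the rule were left out of the tests. The SE was derived from the fold change and the F statistic. CPM uses the summed counts without TMM factors. Ratios of genes with 1 to 3 UMIs carry exact 95% intervals, and lower bounds use a floor of 3 UMIs over the group. The bounds take the count of the other group as exact. These intervals and bounds cover counting error only, as do Wilson intervals. The labels give the libraries as separate samples, and nothing used here says whether they come from separate embryos, so p-values measure the spread between these libraries.

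Doublets were scored by simulation (2 per cell, 0.8% per 1000 barcodes, 304 and 629 barcodes) and removed only as an alternative. Members and the 21 gene lists (397 genes) were chosen with earlier results of these data known. Named are up to 6 genes per list with the largest changes past the threshold and of the same direction in both libraries, the 10 leading genes per direction with at least 20 CPM in the higher class, and list members that failed. *Orc1* and the genes of the histone set were named outside this rule, after their values had been seen. Sums of 1 library are paired by design, and their deviations from the class means correlated across genes at 0.0268 to 0.568 (classes, 11749 genes) and 0.165 to 0.281 (mitosis sums, 9472 genes). Promoters and gene positions are RefSeq GRCm38.p6 where 467 of 473 genes asked for were matched. In simulated counts for the first comparison (11207 genes), changes of log2 0.5, 1 and 2 were recovered in 1.49%, 41.8% and 68.2% of genes, with 10 false calls of 84. Against IPCs (11186 genes) this was 1.49%, 7.46% and 54.5%, with 1 false call of 43, and for mitosis sums (9153 genes) 0%, 28.4% and 72.7%, with 11 false calls of 78. The tests ran in edgeR 4.0.16 and DESeq2 1.42.0 under R 4.3.3, and the rest in Python 3.11.15 with scanpy 1.11.5, scipy 1.17.1, pandas 2.3.3, numpy 2.4.6 and matplotlib 3.10.9. Of the alternatives 64 were planned and 6, the removal of cells with UMIs of the wider other-type lists, were added after seeing the data.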

Additional observations from a re-analysis of the deposited data

How the results depend on the processing

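Genes tested in S phase against low-cycle RGCs gave 613 calls, and 1423 with no filter on low counts, 1491 with the replicate block, 401 with cells of the wider other-type lists removed and 948 with the stricter low-cycle gate. Against G2M RGCs the 279 calls became 641 with no filter and 707 with the replicate block. Against IPCs the 614 calls became 1200 with no filter and 361 at an S phase sum of at least 8. The interaction, 0 by the main design, gave 170 with no filter, 17 with the replicate block and 26 with DESeq2. Within the S phase RGCs the 24 calls became 280 with no filter, 140 with the replicate block, 40 in cells of 8000 to 20000 UMIs, 47 with cells holding other-type UMIs removed and 67 with the wider lists. The cause was not tested, beyond the larger number of genes tested with no filter.

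The mean share of S phase RGCs, 26.5%, became 20.4% at an S phase sum of at least 8, 30.8% in cells of 8000 to 20000 UMIs and 20.3% after thinning to 5000 UMIs, and was 24.6% to 28.4% with 1 library left out. *Ccnb1* and *Ccnb2* turned from lower to 0.23 and 0.022 (S phase against low-cycle) under the stricter low-cycle gate, which admits fewer cells with mitotic UMIs. Of the values of single genes, 1953 kept direction and call under an alternative, 89 lost the call, 13 gained it, 95 moved by more than the spread with 1 library left out, and 2 reversed. The largest numbers of lost calls came from removing cells of the wider other-type lists (22), an S phase sum of at least 8 (19), DESeq2 and the depth window (10 each). The replicate block lost 1 named gene (*Nbn*). Leaving out 1 library leaves 1 sum per class and no residual spread, so those values have no test.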
